A study of Saccharomyces cerevisiae with 12 samples.

Results

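The hal4hal5 double mutant of Saccharomyces cerevisiae was compared with its wild type in 2 laboratory strain backgrounds, W303 and BY4741, and the object here is how far the effect of the mutations differed between these backgrounds at pH 4.5. It was measured on 8 of the 12 arrays of the series, the 4 W303 arrays and the 4 BY4741 arrays of cells grown in YPD (a rich glucose medium) at pH 4.5 and 28 °C, and harvested in log phase. Each array carried the RNA of the hal4hal5 strain in one dye and that of the wild type of the same background in the other, so every value is a ratio of mutant over wild type within 1 background. In all, 5278 of the 5994 open reading frames (ORFs) had at least 3 values in each background and were tested; 223 had enough values only in W303, 183 only in BY4741, and 310 in neither. The series describes the 4 arrays of a group as biological replicates. The full genotypes of the strains (how the 2 genes were disrupted, the marker alleles, the mating type, the number of clones) are not given in the sources used here.

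Hal4 (SAT4) and Hal5 are related protein kinases of budding yeast that sustain potassium uptake through the plasma membrane transporters Trk1 and Trk2 and stabilise nutrient transporters at the cell surface. Cells that lack both take up potassium poorly and are sensitive to other cations and to low external pH. W303 and BY4741 are laboratory strains of partly different ancestry that also differ in the alleles they carry, among them auxotrophic markers: standard W303 stocks carry a defective ADE2, and BY4741 lacks MET17 (MET15).

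The deposited values were read as log2 ratios of Cy5 over Cy3, and the sign was turned where Cy3 held the mutant (1 array in W303, 2 in BY4741). The sources used here name no log base; if it were the natural one, every fold printed here would be too small. For 1 ORF, the effect is the mean log2 ratio of a background, and the difference is the W303 effect minus the BY4741 effect. A difference of 1 means that the mutant over wild type ratio was 2-fold higher in W303. Effects and differences were called where limma's p, adjusted by Benjamini-Hochberg, was below 0.05 over all 5278 ORFs; errors are limma's standard error (SE) for a difference and the SD between arrays for a mean.

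The arrays held 5429 to 5659 values in W303 and 5166 to 5696 in BY4741. Array pairs of 1 background correlated across ORFs, which are not independent replicates, with a median r of 0.908 in W303 and 0.623 in BY4741. The deleted genes set the direction of the ratios and are no finding. SAT4 ratios were -0.09, -0.18, -0.23 and -0.18 on the 4 W303 arrays, against -0.73 and -0.96 on only 2 of the BY4741 arrays, and SAT4 was not tested. HAL5 ratios were 0.42, -0.27, -0.21 and -0.32 on the W303 arrays, against -0.78, -0.01, -0.56 and -0.67 on the BY4741 arrays. The value of W303 replicate 1 goes against its label, and the groups overlap. HAL5 averaged -0.10 in W303, which was not called (limma adjusted p = 0.477), and -0.51 in BY4741, which was called (adjusted p = 0.0262), so the direction rests on small ratios of the deleted genes. The HAL5 difference of 0.41 was not called (limma adjusted p = 0.119), and it was called without BY4741 replicate 2 (difference 0.58, adjusted p = 0.021).

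Some marker genes moved in 1 background. HIS3, of histidine synthesis, had ratios of 2.10, 1.88, 1.90 and 2.11 in W303, against 0.37, 0.03, 0.04 and 0.14 in BY4741, with no overlap. MET17, of sulphide assimilation, had ratios of 2.10, 1.49, 1.94 and 2.06 in W303, against 0.16, 0.13, 0.10 and 0.13 in BY4741, again with no overlap. If the BY4741 strains lack MET17, as standard stocks do, its ratio there compares signal of strains that both lack the gene, and the difference then says nothing of an effect of the mutations in BY4741. ADE2, of purine synthesis, averaged -2.30 ± 0.26 in W303 and -0.57 ± 0.09 in BY4741 (SD, n = 4 each), and the arginine permease gene CAN1 averaged 0.47 ± 0.11 and, in BY4741, -0.37 ± 0.19. All 4 of these differences were called (limma adjusted p = 7.85e-06 for HIS3, 1.63e-05 for MET17, 1.63e-05 for ADE2 and 0.000449 for CAN1). LYS2, TRP1 and URA3 differed by -0.23, 0.21 and 0.08, and none of these was called. The limit given for MET17 holds for any marker gene that both strains of a background lack, so these differences do not show like effects. LEU2 ratios were 0.59, 0.30, 0.33 and 0.53 in W303, against 5.01 on the only BY4741 array that measured it. A change in such a gene cannot be told apart from a marker gene that only 1 of the strains compared carried, since the genotypes are not given.

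Across the 5278 ORFs, 2012 differences were called (38.1%), 1065 higher in W303 (20.2%) and 947 lower in W303 (17.9%). The higher and lower counts of every gene list below are to be read beside these shares. The 4 W303 arrays and the 4 BY4741 arrays did not overlap in 1961 ORFs (37.2%). Most differences were small, and 123 of the called ones were at least 2-fold, 103 higher and 20 lower in W303. The median difference over all ORFs was 0.03. The effect called in W303 was a rise for 1906 ORFs (36.1%) and a fall for 1767 (33.5%), against 873 (16.5%) and 839 (15.9%) in BY4741. The effect was at least 2-fold for 310 called ORFs in W303 and for 103 in BY4741. Counting only ORFs with a symbol, 64 were in both sets with 1 sign.

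Ratios were more widely spread in W303. Over the 4698 ORFs measured on all 8 arrays, the SD of an array's ratios was 0.571 ± 0.024 in W303 and 0.393 ± 0.033 in BY4741 (SD, n = 4 each). The difference of 0.178 was larger than the spread between arrays (exact two-sided permutation test, p = 0.0286, the smallest that 4 against 4 arrays allow), and all 4 W303 arrays were wider than all 4 BY4741 arrays. When every array was set to the same median and median absolute deviation, 1205 differences were called, 579 higher and 626 lower in W303, and 1073 of these were among the 2012. A call that ends under this equal spread is marked as such below. Counts over all ORFs thus fell at equal spread, and were 1480 to 2067 on leaving out 1 array. A smaller list count in such a setting need not be particular to the list. The effects of the 2 backgrounds correlated across ORFs with r = 0.678, as a description, since ORFs share the arrays.

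**Figure D1:**
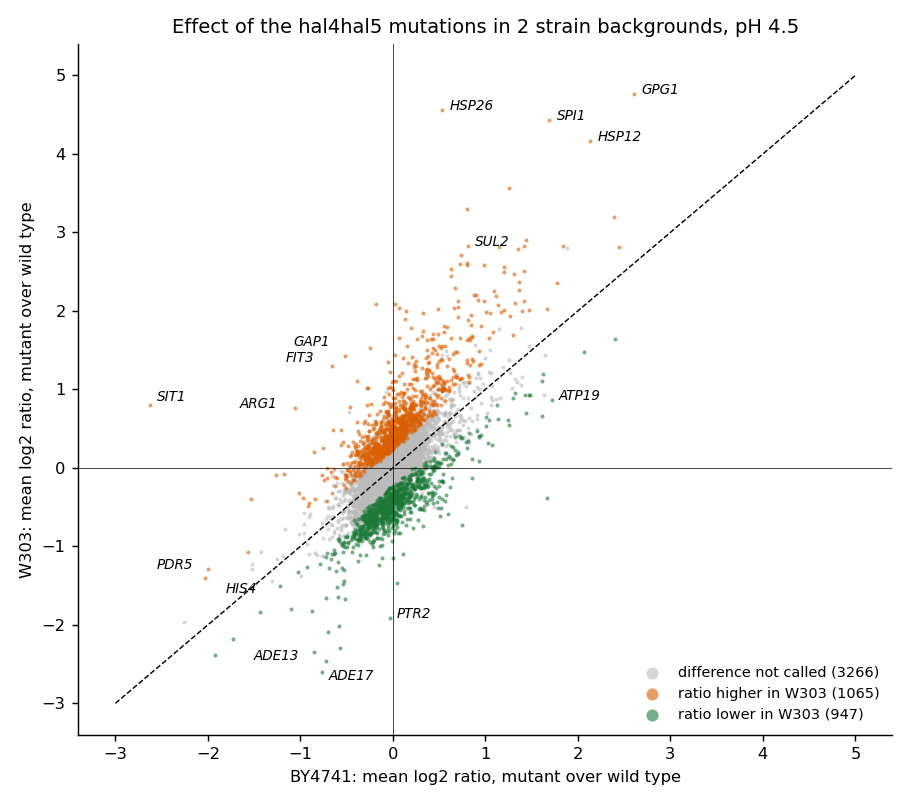
Each point is 1 of 5278 ORFs, with the mean log2 ratio of mutant over wild type in W303 (4 arrays) on the vertical axis and in BY4741 (4 arrays) on the horizontal axis; colours give the limma call of the difference at an adjusted p below 0.05, and the dashed line marks equal effects. The points with the largest ratios, HSP26, SPI1, GPG1 and HSP12, lie above the line, and the purine genes ADE17 and ADE13 lie below it.

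Most ORFs called in both backgrounds moved in 1 direction. Of the 1389 ORFs called in both backgrounds, 1288 had 1 sign and 101 had opposite signs. The difference was called for all 101, which opposite calls on the same arrays make nearly certain. Among those of 1 sign, the difference was called for 464, with the larger effect in W303 for 407 and in BY4741 for 57. Of the 2284 ORFs called only in W303, the difference itself was called for 1226, so for the other ORFs of that class a differing effect was not shown. Of the 323 called only in BY4741, it was called for 164.

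Genes of the general stress response, which Msn2 and Msn4 activate in many stresses, had higher ratios in W303. Of 39 members tested, 31 were higher in W303 (all ORFs: 20.2%) and 0 lower. Their median effect was 1.40 in W303 and 0.50 in BY4741, and their median difference was 0.74, against 0.03 for all ORFs. In W303, 36 of the 39 rose, against 19 in BY4741 (all ORFs: 36.1% and 16.5%).

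HSP26, a small heat shock protein that binds unfolded proteins, had the largest difference of the 5278 ORFs tested. HSP26 ratios were 4.71, 3.89, 4.61 and 5.02 on the W303 arrays, against 1.04, 1.46, 0.37 and -0.75 on the BY4741 arrays, which include values on both sides of 0. The difference of 4.03 (SE 0.41) is a 16.3-fold higher ratio in W303 (limma adjusted p = 0.000129). HSP12, a membrane-protecting stress protein, had ratios of 3.97, 4.02, 4.39 and 4.29 in W303, against 2.09, 2.82, 1.91 and 1.70 in BY4741. It rose in both backgrounds and differed by 2.04 (SE 0.21, adjusted p = 0.000137). SPI1, a cell wall protein made in stationary phase and in weak acid, had ratios of 5.02, 4.07, 4.18 and 4.45 in W303, against 2.21, 2.94, 1.18 and 0.41 in BY4741, a difference of 2.74 (SE 0.45, adjusted p = 0.00161). SPI1 was chosen among genes without overlap, and its BY4741 arrays are widely spread.

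The stress genes GAD1 and SSE2 rose in W303 and were not called in BY4741, whereas GPG1 and KTD1 were called as rises in both. GAD1, glutamate decarboxylase, had ratios of 2.02, 2.01, 1.94 and 2.40 in W303, against -0.12, 0.60, 0.01 and -1.22 in BY4741 (difference 2.27, SE 0.30, adjusted p = 0.000522). SSE2, a nucleotide exchange factor of Hsp70, had ratios of 2.51, 1.65, 1.85 and 2.15 in W303, against -0.14, 0.81, -0.05 and -0.34 in BY4741 (difference 1.97, SE 0.25, adjusted p = 0.000397). Both genes were chosen among those whose groups do not overlap. GPG1, named as a G protein subunit mimic and listed here with the flocculation and filamentous growth genes, had the largest rise of the tested ORFs with a symbol in each background: 4.73, 5.49, 4.24 and 4.57 in W303, against 1.79, 2.79, 3.38 and 2.44 in BY4741. Its difference of 2.16 (SE 0.32, adjusted p = 0.00101) was 0.62 at equal spread, where the call ended (adjusted p = 0.279). KTD1, at 2.55, 2.35, 2.43 and 2.47 in W303, against 0.82, 0.78, 0.60 and 0.32 in BY4741, differed by 1.82 (SE 0.12, adjusted p = 1.42e-05). Its sequence belongs to a family of similar genes, so cross-hybridisation is possible.

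The stress genes varied between the BY4741 arrays more than between the W303 arrays. The list median by array was 1.45, 1.22, 1.42 and 1.63 in W303, against 0.64, 0.93, 0.54 and 0.05 in BY4741. BY4741 replicate 4 was the lowest and replicate 2 the highest, and both have the mutant in Cy3. Without BY4741 replicate 4, 29 of the 39 were higher in W303 (median difference 0.67), and without replicate 2, 33 were (0.79). At equal spread 13 were higher and 2 lower in W303, with a median difference of 0.43.

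Chaperones as a list of 33 were mixed: 11 were higher and 4 lower in W303 (all ORFs: 20.2% and 17.9%), with a median difference of 0.18 (0.08 without BY4741 replicate 4). The 11 became 6 without W303 replicate 4, and 7 without W303 replicate 2, BY4741 replicate 3 or BY4741 replicate 4. HSP78, the mitochondrial disaggregase, averaged 1.71 ± 0.09 in W303 and 0.44 ± 0.60 in BY4741 (SD, n = 4 each; difference 1.27, adjusted p = 0.003), and the call ended at equal spread. HSP104, the cytosolic disaggregase, had ratios of 1.45, 1.45, 1.44 and 1.75 in W303, against 0.48, 1.44, 0.41 and -0.59 in BY4741. The HSP104 groups nearly touch, and the difference of 1.09 (adjusted p = 0.0225) was not called without W303 replicate 4 (1.01, adjusted p = 0.0591) or at equal spread. In the Hsp31 family of methylglyoxal-degrading chaperones, 3 of 4 members were tested and 2 were higher in W303. HSP33 averaged 1.92 in W303 and 0.70 in BY4741, and HSP31 averaged 1.29 and, in BY4741, 0.59. These genes are near-identical copies in part, and the HSP31 call ended at equal spread.

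**Figure D2:**
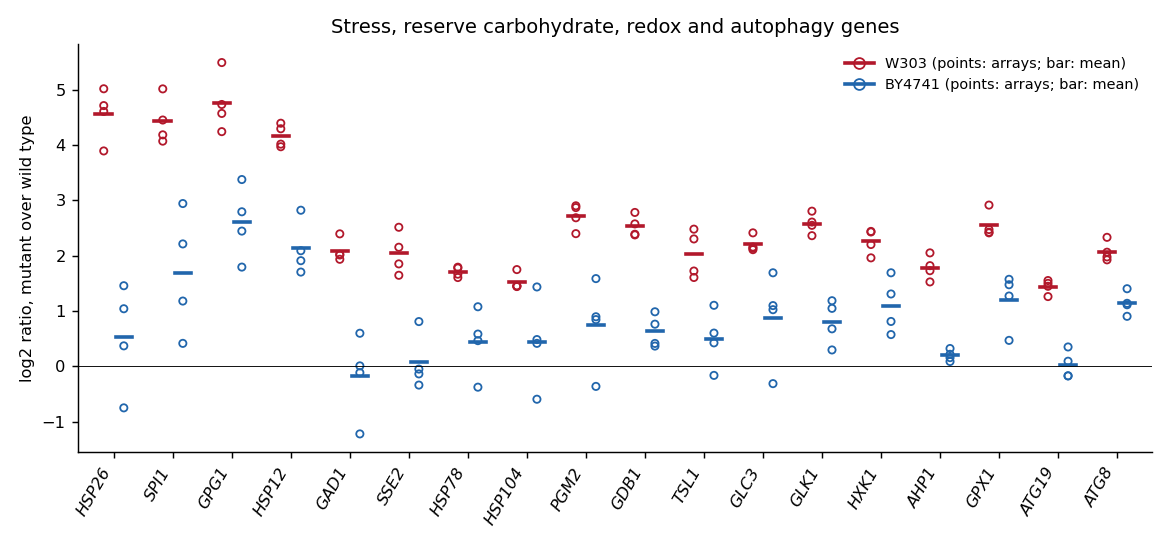
Log2 ratio of mutant over wild type on each array (open circles) and group mean (bar) for 18 genes of stress, reserve carbohydrate, redox and autophagy lists, W303 to the left of BY4741 for each gene. The groups are apart in every gene shown. The BY4741 circles of HSP26, GAD1, SSE2, HSP78, HSP104, PGM2, TSL1, GLC3 and ATG19 spread across 0.

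Genes of reserve carbohydrate synthesis and breakdown followed. Of 18 trehalose and glycogen genes, 11 were higher in W303 and 1 lower (all ORFs: 20.2% and 17.9%). Their median effect was 1.00 in W303 and 0.13 in BY4741 (median difference 0.84). PGM2, which makes glucose 1-phosphate, had ratios of 2.90, 2.40, 2.69 and 2.87 in W303, against 0.84, 1.59, 0.90 and -0.36 in BY4741 (difference 1.97, SE 0.32, adjusted p = 0.00156). GDB1, the glycogen debranching enzyme, had ratios of 2.58, 2.39, 2.38 and 2.78 in W303, against 0.37, 0.76, 0.99 and 0.41 in BY4741 (difference 1.90, SE 0.15, adjusted p = 2.6e-05). Both genes were chosen among those without overlap between the backgrounds. TSL1, a subunit of trehalose synthase, averaged 2.03 ± 0.43 in W303 and 0.49 ± 0.52 in BY4741 (SD, n = 4 each; adjusted p = 0.00193). GLC3, the glycogen branching enzyme, averaged 2.20 ± 0.14 in W303 and 0.88 ± 0.85 in BY4741 (adjusted p = 0.0103), and this call ended at equal spread. The list kept 9 members higher and 1 lower there.

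Glycolysis and fermentation genes were higher in W303 in 22 of 25 cases and lower in 0. The single differences were mostly modest: the median effect was 0.51 in W303 and 0.07 in BY4741, and at equal spread 13 were higher and 0 lower. In W303, 21 rose and 2 fell (36.1% and 33.5% of all ORFs), against 2 that rose and 5 that fell in BY4741 (16.5% and 15.9% of all ORFs). On 3 or more of the 8 arrays, 19 ORFs had a deposited value identical to that of the same other ORF, and 9 of them are in this list, PDC1 and TDH1 included. Without these 9, an alternative chosen after seeing the data, 13 of the other 16 were higher in W303 and 0 lower (median difference 0.56). The cause of the repeated values was not tested. GLK1, glucokinase, led with ratios of 2.55, 2.36, 2.61 and 2.81 in W303, against 0.68, 1.19, 1.05 and 0.30 in BY4741 (difference 1.78, SE 0.18, adjusted p = 0.000129). HXK1, the hexokinase repressed by glucose, averaged 2.26 in W303 and 1.10 in BY4741 (adjusted p = 0.00293), a call that ended at equal spread. PDC1, the main pyruvate decarboxylase, averaged 0.55 ± 0.14 in W303 and -0.23 ± 0.35 in BY4741 (SD, n = 4 each; adjusted p = 0.00458). TDH1, a glyceraldehyde 3-phosphate dehydrogenase with near-identical copies TDH2 and TDH3, averaged 0.89 in W303 (4 arrays) and 0.19 in BY4741 (3 arrays; adjusted p = 0.00516).

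Glucose-repressed carbon genes gave 11 higher and 4 lower in W303 of 20, with a median difference of 0.26. ADR1, an activator of glucose-repressed genes, had ratios of 3.17, 2.55 and 3.01 on the 3 W303 arrays that measured it, against 1.38, 1.53, 1.44 and 1.40 in BY4741 (difference 1.47, SE 0.14, adjusted p = 0.000138). CIT2, peroxisomal citrate synthase and a target of retrograde signalling from mitochondria, had ratios of 2.90, 2.83, 2.75 and 2.81 in W303, against 1.40, 1.49, 1.47 and 1.31 in BY4741. Its arrays were tight in both backgrounds, and the difference of 1.41 (SE 0.08) had an adjusted p of 7.85e-06. ACH1, of acetate metabolism, averaged 2.12 in W303 and 0.98 in BY4741 (adjusted p = 0.000244), and CYB2, lactate dehydrogenase, 1.88 in W303 and 0.81 in BY4741 (adjusted p = 0.000337, not called at equal spread). Of 17 hexose transport genes, 5 were higher and 0 lower in W303, against 20.2% and 17.9% of all ORFs (3 higher without W303 replicate 1, 3 or 4), and the median difference of 0.15 was 0.10 without W303 replicate 3 and 0.04 without BY4741 replicate 4. The regulator of hexose transporters RGT1 averaged 0.55 in W303 (3 arrays) and -0.08 in BY4741 (adjusted p = 0.00288).

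Antioxidant enzymes were higher in W303 for 15 of 29 and lower for 4, with a median difference of 0.36. AHP1, a peroxiredoxin, had ratios of 1.73, 1.53, 2.05 and 1.82 in W303, against 0.22, 0.32, 0.09 and 0.16 in BY4741 (difference 1.59, SE 0.11, adjusted p = 1.63e-05). The AHP1 rise was thus called in W303 only, and the difference itself was called. AHP1 is 1 of the 19 ORFs with repeated values: on 3 BY4741 arrays its value is identical to that of TDH1, so its BY4741 mean is uncertain. The paralogues GPX1 and GPX2, glutathione peroxidases, moved in opposite directions from wild type yet differed in the same direction between backgrounds. GPX1 averaged 2.56 ± 0.24 in W303 and 1.20 ± 0.50 in BY4741 (SD, n = 4 each; adjusted p = 0.00145, not called at equal spread). GPX2 ratios were -0.41, -0.41, -0.35 and -0.41 in W303, against -1.40, -1.66, -1.54 and -1.53 in BY4741: it fell in both, and by more in BY4741 (difference 1.14, SE 0.08, adjusted p = 1.63e-05). The mitochondrial thioredoxin gene TRX3 averaged 1.15 in W303 and 0.35 in BY4741 (adjusted p = 0.00273, not called at equal spread). The list held 8 higher and 5 lower at equal spread.

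Of 28 autophagy genes, 14 were higher in W303 and 1 lower, with a median difference of 0.35, and 14 rose in W303, against 3 in BY4741 (all ORFs: 36.1% in W303 and 16.5% in BY4741). ATG19, a receptor that brings aminopeptidase to the vacuole, had ratios of 1.5, 1.26, 1.45 and 1.55 in W303, against 0.09, -0.17, 0.35 and -0.17 in BY4741 (difference 1.42, SE 0.13, adjusted p = 5.93e-05). ATG17, a scaffold of the autophagy initiation complex, averaged 0.90 in W303 and 0.10 in BY4741 (3 arrays; adjusted p = 0.000698). ATG8, whose product coats the autophagosome, rose in both, at 2.07 in W303 and 1.14 in BY4741 (adjusted p = 0.000519, not called at equal spread). ATG23 averaged 0.56 in W303 and -0.20 in BY4741 (adjusted p = 0.000879). The vacuolar protease gene PRB1 averaged 1.82 in W303 and 0.85 in BY4741 (adjusted p = 0.00126, not called at equal spread).

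Purine synthesis stood on the other side. The pathway builds inosine monophosphate (IMP) in steps encoded by the ADE genes, and IMP then leads to AMP and GMP; in this yeast its genes are repressed when adenine is plentiful. Of 24 purine genes, 14 were lower in W303 (all ORFs: 17.9%) and 1, ADE16, higher. The median effect was -1.14 in W303 and -0.55 in BY4741, with a median difference of -0.45. Purine genes fell in both backgrounds, 23 of 24 in W303 and 18 in BY4741 (all ORFs: 33.5% and 15.9%).

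The IMP steps fell further in W303. ADE17 ratios were -2.94, -2.26, -2.63 and -2.56 in W303, against -0.75, -1.08, -0.56 and -0.69 in BY4741 (difference -1.83, SE 0.15, adjusted p = 3.8e-05). ADE1 ratios were -2.69, -2.39, -2.21 and -2.52 in W303, against -0.50, -1.02, -0.76 and -0.61 in BY4741 (difference -1.73, SE 0.13, adjusted p = 2.31e-05). ADE13, which acts in both the IMP and the AMP branch, had ratios of -2.43, -2.42, -2.14 and -2.41 in W303, against -0.85, -1.04, -0.76 and -0.79 in BY4741 (difference -1.49, SE 0.10, adjusted p = 1.42e-05). These genes were chosen among those without overlap between the backgrounds, and in each the fall was called in both. ADE57, ADE4 and ADE8 averaged -2.09, -1.66 and -1.64 in W303, against -0.70, -0.52 and -0.59 in BY4741 (adjusted p = 2.24e-05, 0.000361 and 0.000352). HPT1, which salvages hypoxanthine and guanine, had ratios of -2.14, -1.89, -2.01 and -2.03 in W303, against -0.31, -0.69, -0.88 and -0.45 in BY4741 (difference -1.43, SE 0.12, adjusted p = 4.83e-05).

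In the GMP branch the members differed. GUA1, GMP synthase, and IMD4 were lower in W303, whereas 2 other genes of IMP dehydrogenase were not. IMD2 and IMD3, which are near-identical so that their probes may share signal, fell in both backgrounds by like amounts. IMD2 ratios were -1.27, -0.95, -1.14 and -1.12 in W303, against -1.0, -1.32, -1.30 and -1.16 in BY4741, with a difference of 0.07 (95% interval -0.15 to 0.30). IMD3 averaged -1.16 in W303 and -1.26 in BY4741 (difference 0.10, 95% interval -0.10 to 0.31). Both overlap between backgrounds. At equal spread both were called higher in W303 (0.58 and 0.63). The list kept 11 lower and 3 higher at equal spread, with a median difference of -0.17.

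**Figure D3:**
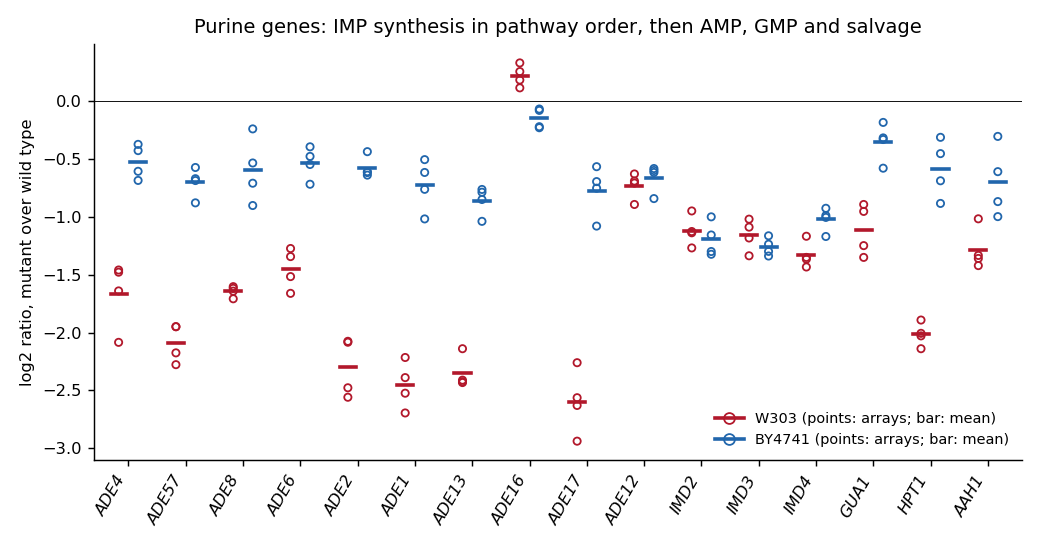
Log2 ratio of mutant over wild type on each array (open circles) and group mean (bar) for 16 purine genes, the IMP steps in pathway order and then the AMP, GMP and salvage genes, W303 to the left of BY4741. The W303 values of ADE4 to ADE13, ADE17 and HPT1 lie below those of BY4741, whereas IMD2 and IMD3 overlap and ADE16 lies higher in W303.

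One-carbon genes, which supply formyl groups to the purine ring, gave 8 lower and 3 higher in W303 of 19, with a median difference of -0.18. MTD1, a methylenetetrahydrofolate dehydrogenase, had ratios of -2.02, -1.67, -1.67 and -1.95 in W303, against -0.76, -1.0, -0.83 and -0.92 in BY4741 (difference -0.95, SE 0.11, adjusted p = 0.000211). MIS1, the mitochondrial enzyme of this step, averaged -0.94 in W303 and -0.21 in BY4741 (3 arrays; adjusted p = 0.000826). SAH1, which clears S-adenosylhomocysteine, averaged -0.67 in W303 and -0.12 in BY4741 (adjusted p = 0.000547). MET13, which turns the same folate pool to methionine, ran the other way, at 0.95 ± 0.20 in W303 and 0.05 ± 0.12 in BY4741 (SD, n = 4 each; adjusted p = 0.000391). At equal spread 4 of the list were lower and 3 higher.

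Methionine and sulphur assimilation genes were higher in W303 for 13 of 30 and lower for 5 (3 without W303 replicate 2 or 3 or BY4741 replicate 4), with a median difference of 0.25. SUL2, a sulphate permease, had ratios of 3.20, 2.28, 3.01 and 2.83 in W303, against 0.67, 0.80, 0.88 and 0.89 in BY4741 (difference 2.02, SE 0.17, adjusted p = 3.96e-05). MET28, an activator of the sulphur genes, averaged 2.21 ± 0.30 in W303 and 0.89 ± 0.05 in BY4741 (SD, n = 4 each; adjusted p = 0.000137). Both rose in both backgrounds with no overlap between them. MET5 averaged 2.36 in W303 and 1.36 in BY4741, and MET1 1.68 in W303 and 0.86 in BY4741; both act in sulphite reduction, and both calls ended at equal spread, where 3 of the list were higher and 6 lower (median difference 0.03).

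In the list of histidine, arginine, lysine and aromatic synthesis, 8 of 42 were higher and 7 lower in W303, shares near the background of all ORFs. ARG1, argininosuccinate synthetase, rose in W303 and fell in BY4741, with ratios of 0.66, 0.55, 0.90 and 0.94 in W303, against -0.90, -1.16, -0.93 and -1.26 in BY4741 (difference 1.82, SE 0.12, adjusted p = 1.42e-05). ARG4, which acts next in the pathway, averaged 1.02 ± 0.07 in W303 and -0.28 ± 0.29 in BY4741 (SD, n = 4 each; adjusted p = 0.000129). LYS4, homoaconitase of lysine synthesis, had ratios of -1.30, -0.89, -0.95 and -1.23 in W303, against 0.17, -0.13, 0.23 and 0.15 in BY4741 (difference -1.20, SE 0.12, adjusted p = 0.000129). HIS1, the first step of histidine synthesis, averaged -0.83 in W303 and -0.23 in BY4741 (adjusted p = 0.00111).

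Leucine and branched-chain synthesis gave 7 lower and 2 higher in W303 of 12, with median effects of -0.61 in W303 and -0.65 in BY4741 but a median difference of -0.31, of the other sign. At equal spread 2 were lower and 2 higher, and 4 were lower without W303 replicate 4 or BY4741 replicate 1. BAT2, the cytosolic transaminase, averaged -0.65 ± 0.08 in W303 and 0.16 ± 0.10 in BY4741 (SD, n = 4 each; adjusted p = 0.000165). OAC1, a mitochondrial carrier that exports a leucine precursor, fell in both, at -1.80 in W303 and -1.11 in BY4741, and its difference (adjusted p = 0.00415) was not called at equal spread. ILV5 fell further in BY4741, with ratios of -0.44, -0.52, -0.02 and -0.28 in W303, against -0.82, -1.35, -0.87 and -1.01 in BY4741 (difference 0.70, SE 0.14, adjusted p = 0.00416). BNA4, of the kynurenine route to NAD, was lower in W303, at -1.15, against -0.12 in BY4741 (adjusted p = 7.56e-05).

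Amino acid and peptide permeases went both ways. GAP1, the general amino acid permease that is made on poor nitrogen sources, had ratios of 1.51, 1.30, 1.49 and 1.41 in W303, against -0.47, -0.88, -0.20 and -0.53 in BY4741: it rose in W303 and fell in BY4741. The difference of 1.95 (SE 0.13) is a 3.86-fold higher ratio in W303 (adjusted p = 1.42e-05). PTR2, the permease of di- and tripeptides, had ratios of -1.62, -2.22, -1.70 and -2.11 in W303, against -0.20, -0.48, 0.51 and 0.02 in BY4741. This is the largest called difference lower in W303 among genes with a symbol (-1.88, SE 0.21, a 3.68-fold lower ratio, adjusted p = 0.000195). DIP5, the permease of acidic amino acids, averaged -0.01 in W303 and -0.64 in BY4741 (adjusted p = 0.00246). In the whole list of 21 amino acid and peptide permeases, 5 were higher and 6 lower in W303 (all ORFs: 20.2% and 17.9%). The median difference was -0.02.

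Genes under nitrogen catabolite repression, which is lifted when good nitrogen sources run out, were higher in W303 for 13 of 26 and lower for 5, with a median difference of 0.31. At equal spread 8 were higher and 6 lower. GZF3, a GATA factor that represses this regulon, averaged 0.58 ± 0.26 in W303 (SD, n = 4) and -0.31 ± 0.32 in BY4741 (SD, n = 3; limma adjusted p = 0.00455). GDH3, a glutamate dehydrogenase similar in sequence to GDH1, ran the other way, with ratios of -0.46, -0.37, -0.33 and -0.21 in W303, against 0.65, 0.47, 0.63 and 0.55 in BY4741 (difference -0.92, SE 0.09, adjusted p = 7.76e-05).

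Iron regulon genes, which Aft1 activates when iron is scarce, were higher in W303 for 10 of 27 and lower for 0. In W303 10 rose and 6 fell (all ORFs: 36.1% and 33.5%), and in BY4741 1 rose and 11 fell (all ORFs: 16.5% and 15.9%). The median effect was 0.08 in W303 and -0.26 in BY4741. At equal spread 9 were higher and 0 lower. SIT1, a transporter of iron bound to siderophores, had ratios of 0.91, 0.86 and 0.62 on the 3 W303 arrays that measured it, against -2.76, -3.88, -1.60 and -2.28 in BY4741. All W303 values lie above 0 and all BY4741 values far below it, and the difference of 3.43 (SE 0.42) is a 10.8-fold higher ratio in W303 (adjusted p = 0.000481). FIT3, a cell wall mannoprotein that retains siderophore iron, had ratios of 1.84, 0.86, 1.05 and 1.44 in W303, against -0.30, -0.90, -0.74 and -0.70 in BY4741 (difference 1.96, SE 0.20, adjusted p = 0.000137). Its relative FIT1 averaged 0.48 ± 0.10 in W303 and -0.65 ± 0.21 in BY4741 (SD, n = 4 each; adjusted p = 0.000105). FIT1 and FIT3 likewise rose in W303 and fell in BY4741. TIS11 (CTH2), which destabilises mRNAs of iron-using proteins, averaged 0.81 in W303 and -0.28 in BY4741 (3 arrays; adjusted p = 0.000397).

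Further genes were called in both backgrounds with opposite signs. DED1, an RNA helicase of translation initiation, had ratios of 0.80, 1.30, 1.12 and 1.18 in W303, against -0.49, -0.27, -0.38 and -0.42 in BY4741 (difference 1.49, SE 0.11, adjusted p = 2.17e-05). DED1 lies next to HIS3 in the RefSeq order of genes, with 0 listed genes between them, and HIS3 was itself high in W303; its part in the DED1 ratio was not tested. NGK1, a sugar kinase, averaged 1.02 ± 0.26 in W303 and -0.27 ± 0.16 in BY4741 (SD, n = 4 each; adjusted p = 0.000146). AUS1, a sterol importer, averaged 0.20 in W303 (3 arrays) and -0.86 in BY4741 (adjusted p = 0.00171).

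In the opposite sense, TOP3, a DNA topoisomerase, had ratios of -0.12, -0.79, -0.81 and -0.60 in W303, against 0.45, 0.54 and 0.79 on 3 BY4741 arrays (difference -1.18, SE 0.17, adjusted p = 0.00107). KDX1, a kinase-like protein of the cell wall stress pathway, averaged -0.75 ± 0.12 in W303 and 0.32 ± 0.18 in BY4741 (SD, n = 4 each; adjusted p = 0.000129). ADP1, an ABC transporter, averaged -0.52 in W303 and 0.53 in BY4741 (adjusted p = 0.00259). GAS2, a glucanosyltransferase of the spore wall, averaged -0.51 in W303 and 0.48 in BY4741 (adjusted p = 5.93e-05). Cell wall genes as a list were split, with 9 of 41 higher and 10 lower in W303 (all ORFs: 20.2% and 17.9%). Their median difference was -0.02.

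**Figure D4:**
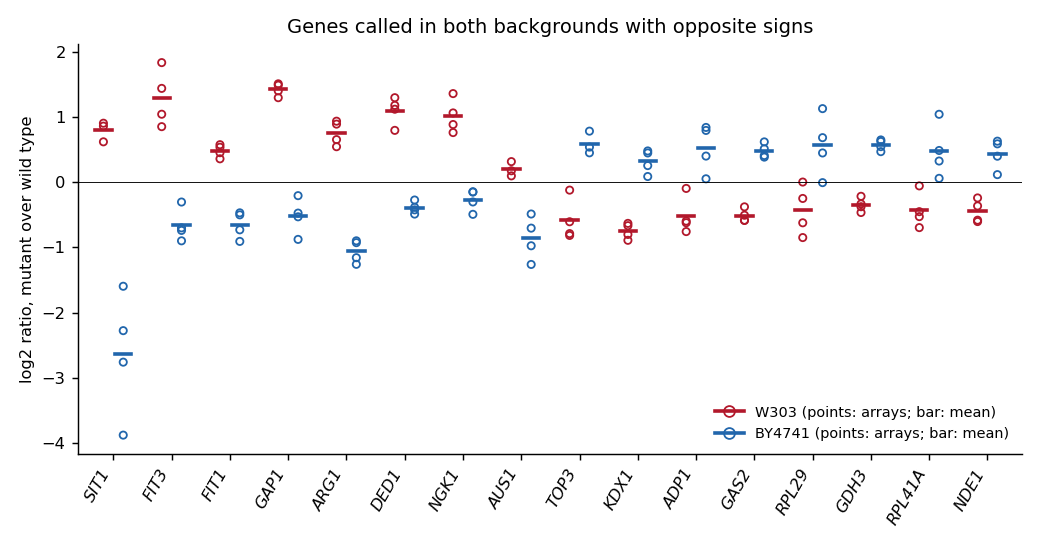
Log2 ratio of mutant over wild type on each array (open circles) and group mean (bar) for 16 genes, W303 to the left of BY4741. Of the named genes called in both backgrounds with opposite signs, these had the largest differences in each direction. CAN1, AGA1, FUS1 and CLB1 (rise in W303) and SAG1 (fall in W303) were also called with opposite signs and are not shown. SIT1 to AUS1 are above 0 in W303 and below 0 in BY4741, TOP3 to NDE1 have means of the reverse signs, and the arrays of RPL29 overlap.

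Respiratory chain genes had larger rises in BY4741. They rose in both backgrounds, 34 of 36 in W303 and 33 in BY4741 (all ORFs: 36.1% and 16.5%), but the median effect was 0.70 in W303 and 0.94 in BY4741. In the difference 18 were lower and 3 higher in W303, with a median of -0.32. By array, the list median was 0.72, 0.72, 0.75 and 0.67 in W303, against 1.03, 1.04, 1.05 and 0.90 in BY4741, so the arrays do not overlap. Because this list rose less in the background with the wider ratios, equal spread widened its difference, to 29 lower and 2 higher with a median of -0.79. With all 12 arrays of the series in 1 fit, 8 were lower.

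ATP19, a subunit of ATP synthase, had ratios of 0.93, 0.90, 0.77 and 0.87 in W303, against 1.70, 1.42, 1.78 and 1.97 in BY4741 (difference -0.85, SE 0.11, adjusted p = 0.000541). COX7, a subunit of cytochrome c oxidase, had ratios of 0.86, 0.65, 0.49 and 0.66 in W303, against 1.35, 1.85 and 1.64 on 3 BY4741 arrays (difference -0.95, SE 0.14, adjusted p = 0.00103). NDE1, an external NADH dehydrogenase, fell in W303 and rose in BY4741, at -0.45 and, in BY4741, 0.44 (adjusted p = 0.0009). COX5B, the oxidase isoform made at low oxygen, ran against the list, with ratios of 1.23, 1.25, 0.45 and 0.83 in W303, against -0.06, 0.36, -0.01 and -0.03 in BY4741 (difference 0.88, SE 0.18, adjusted p = 0.00406).

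Tricarboxylic acid cycle genes gave 4 higher and 1 lower in W303 of 18 (median difference 0.10, which was 0.21 without BY4741 replicate 2, 0.06 without replicate 4 and -0.11 at equal spread). KGD2 and PYC1 averaged 1.07 and 1.03 in W303, against 0.65 and 0.53 in BY4741 (adjusted p = 0.00581 and 0.00625), and neither was called at equal spread. CTP1, the mitochondrial citrate carrier, had ratios of -1.16, -1.29, -1.21 and -1.27 in W303, against -0.05, -0.17, -0.15 and -0.23 in BY4741 (difference -1.08, SE 0.08, adjusted p = 1.67e-05). Mitochondrial ribosomal proteins, with medians of 0.29 in W303 and 0.24 in BY4741, were higher in W303 for 3 of 67 and lower for 6 (3 without W303 replicate 4).

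Ribosome biogenesis genes were lower in W303 for 44 of 88 and higher for 4, with a median effect of -0.47 in W303 and -0.12 in BY4741 (median difference -0.33); 76 fell in W303, against 18 in BY4741 (all ORFs: 33.5% and 15.9%). Without W303 replicate 4, W303 replicate 1 or BY4741 replicate 4, 24, 28 and 26 were lower. Over all ORFs, 692, 856 and 729 were lower in these fits, against 947 in the full fit. At equal spread 17 of the list were lower and 2 higher, against 626 and 579 of all ORFs. RRP1 ratios were -0.81, -0.58, -0.79 and -0.84 in W303, against 0.31, -0.04, -0.26 and 0.16 in BY4741 (difference -0.80, SE 0.12, adjusted p = 0.0012). RPF2 averaged -0.76 ± 0.09 in W303 and -0.06 ± 0.22 in BY4741 (SD, n = 4 each; adjusted p = 0.00139). Both act in the assembly of the large subunit, and neither was called in BY4741. NOP1, fibrillarin, ran the other way, with ratios of 2.04, 1.95, 2.23 and 2.31 in W303, against 0.99, 1.08, 0.88 and 0.71 in BY4741 (difference 1.22, SE 0.11, adjusted p = 6.77e-05), as did the helicase gene DBP7, at 0.92 in W303 and 0.25 in BY4741 (adjusted p = 0.00686, not called at equal spread).

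Cytosolic ribosomal proteins were lower in W303 for 52 of 127 and higher for 0, with median effects of -0.36 in W303 and -0.08 in BY4741; 105 fell in W303, against 25 in BY4741 (all ORFs: 33.5% and 15.9%). Without W303 replicate 3, 34 were lower, and at equal spread 26 were lower and 0 higher. Most of these genes come as near-identical pairs whose probes can share signal, so single members are uncertain. RPL29, which has no such partner in yeast, had ratios of -0.25, 0.01, -0.85 and -0.62 in W303, against 0.45, 0.00, 0.69 and 1.13 in BY4741, with an overlap of 1 array each and a difference of -0.99 (SE 0.24, adjusted p = 0.00898). RPL41A, RPS30B and RPS28A averaged -0.43, -0.39 and -0.53 in W303, against 0.48, 0.53 and 0.31 in BY4741 (adjusted p = 0.00588, 0.0109 and 0.00466).

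Sterol synthesis genes were lower in W303 for 16 of 30 and higher for 1, the importer gene AUS1 given above. Their median effect was -0.58 in W303 and -0.22 in BY4741 (median difference -0.34), and at equal spread 9 were lower and 2 higher. ERG11, lanosterol demethylase, had ratios of -0.96, -0.98, -0.91 and -1.05 in W303, against -0.26, -0.22, -0.28 and -0.14 in BY4741 (difference -0.75, SE 0.08, adjusted p = 0.000137). ERG3, which desaturates the sterol ring, averaged -0.82 in W303 and 0.05 in BY4741 (adjusted p = 0.000427), and its electron donor CYB5 -0.93 in W303 and -0.01 in BY4741 (adjusted p = 0.00015). ARE2, which esterifies sterols, had ratios of -1.16, -1.19 and -1.10 on 3 W303 arrays, against -0.21, 0.31, 0.00 and -0.11 in BY4741 (difference -1.15, SE 0.12, adjusted p = 0.000276).

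**Figure D5:**
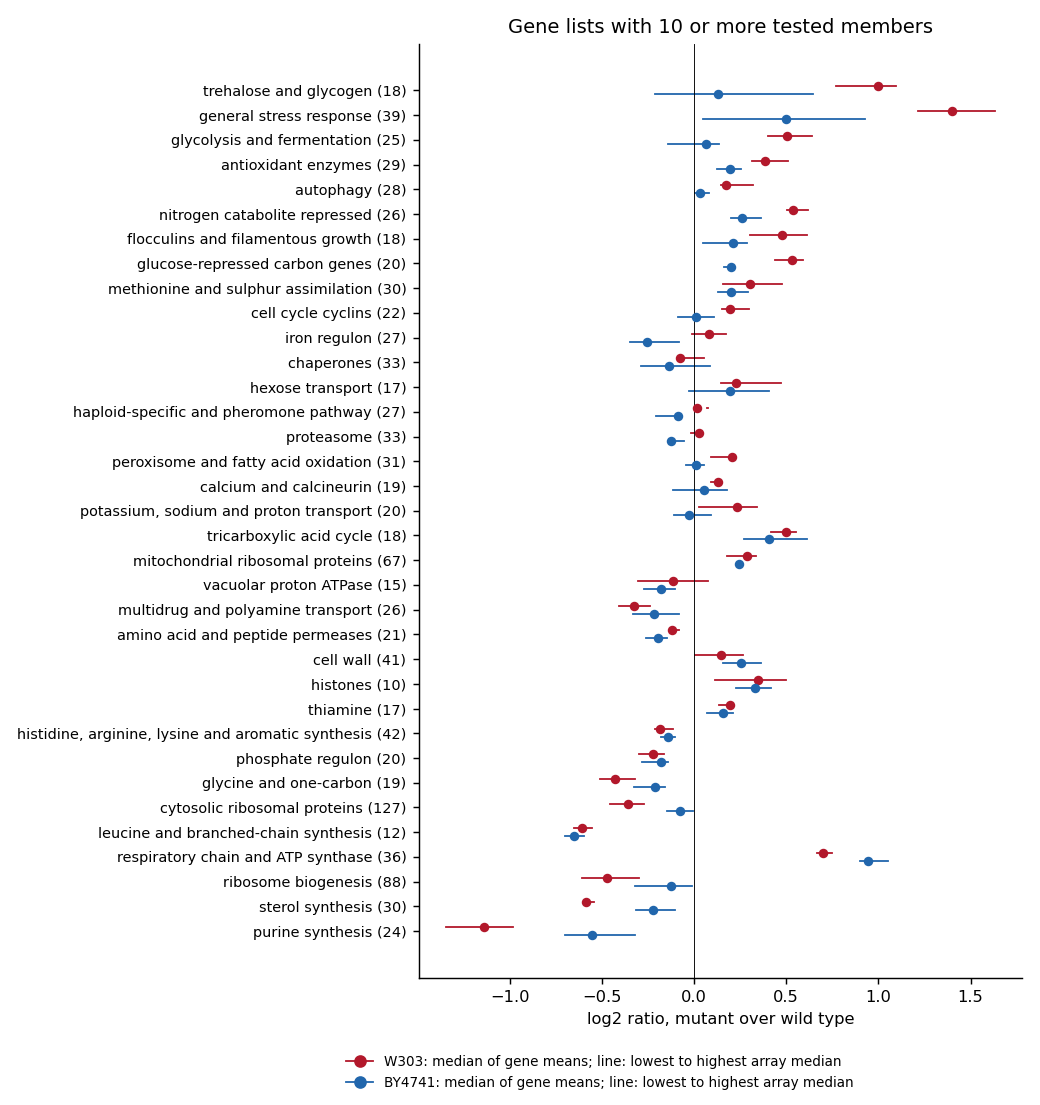
Median log2 ratio of mutant over wild type for each gene list with 10 or more tested members (number in parentheses), ordered by the median difference, with W303 drawn above BY4741; points are medians of the genes' means and lines run from the lowest to the highest array median, taken over members measured on that array. Trehalose and glycogen, stress and glycolysis genes stand highest in W303 relative to BY4741, purine genes lowest, and the respiratory chain is higher in BY4741.

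Among genes of potassium, sodium and proton transport, nearest to the known role of the kinases, 7 of 20 were higher in W303 and 1, ENA2, lower (all ORFs: 20.2% and 17.9%). The median difference was 0.11, and 0.16 without BY4741 replicate 3. TRK2, the lesser potassium transporter, had ratios of -0.17, 0.02 and -0.14 on 3 W303 arrays, against -0.73, -1.06, -0.42 and -0.87 in BY4741 (difference 0.67, SE 0.14, adjusted p = 0.00641). It fell in BY4741 and was not called in W303. The TRK2 difference was not called with all 12 arrays in 1 fit (limma adjusted p = 0.0515). PTK2, a kinase that activates the plasma membrane proton pump, had ratios of 0.72, 0.89, 1.15 and 1.05 in W303, against 0.10, 0.12, 0.39 and -0.11 in BY4741 (difference 0.83, SE 0.13, adjusted p = 0.00107). PPZ2, a phosphatase of salt tolerance, averaged 0.67 ± 0.18 in W303 and 0.01 ± 0.05 in BY4741, and VHS3, an inhibitor of such phosphatases, 0.84 ± 0.14 in W303 and -0.08 ± 0.48 in BY4741 (SD, n = 4 each; adjusted p = 0.000963 and 0.00574). ENA2 belongs to a cluster of near-identical sodium pump genes and is uncertain. Of 19 calcium and calcineurin genes, 3 were higher (PMC1, CMP2 and CNB1) and 0 lower, and 6 were higher without BY4741 replicate 2; PMC1, the vacuolar calcium pump, averaged 0.69 in W303 and 0.15 in BY4741 (adjusted p = 0.0026).

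Of 26 genes of multidrug and polyamine transport, 15 fell in W303 and 12 fell in BY4741 (all ORFs: 33.5% and 15.9%). PDR5, the main multidrug exporter, had ratios of -1.44, -1.28, -1.21 and -1.24 in W303, against -2.17, -1.90, -1.95 and -1.99 in BY4741 (difference 0.71, SE 0.09, adjusted p = 0.00045). YOR1 had ratios of -0.11, 0.11, -0.06 and 0.05 in W303, against -0.73, -0.81, -0.60 and -0.69 in BY4741 (difference 0.71, SE 0.09, adjusted p = 0.000355), and was not called in W303. AQR1, an exporter of acids and amino acids, averaged -1.41 in W303 and -2.03 in BY4741 (adjusted p = 0.00697). SGE1 ran the other way, at -0.83 ± 0.32 in W303 and 0.07 ± 0.21 in BY4741 (SD, n = 4 each; adjusted p = 0.00231). In the difference, 5 were higher and 5 lower in W303 (all ORFs: 20.2% and 17.9%), with a median difference of 0.00. Only 2 or 3 were lower without W303 replicate 2 or 4 or BY4741 replicate 3 or 4.

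Mating and pheromone genes were examined as markers of cell type. Ratios give no level, so the mating type of the strains could not be checked. Of 7 MATa-specific genes, AGA2 and ASG7 were higher and BAR1 lower in W303. Their median effect was 0.88 in W303 and 0.00 in BY4741, whereas their median difference was -0.12 (-0.06 without BY4741 replicate 4). The list median by array ran from 0.01 to 0.93 in W303 and from -0.27 to 0.19 in BY4741. AGA2, an agglutinin subunit of a cells, had ratios of 1.34, 0.89, 0.81 and 0.93 in W303, against -0.06, -0.08, -0.07 and 0.23 in BY4741 (difference 0.99, SE 0.13, adjusted p = 0.000428). ASG7 averaged 1.12 in W303 and 0.26 in BY4741 (adjusted p = 0.00481, not called at equal spread). The BAR1 difference of -0.24 (adjusted p = 0.0481) was lost on leaving out any array except BY4741 replicate 2 (adjusted p 0.0532 to 0.121), at equal spread (-0.04, adjusted p = 0.774), with all 12 arrays in 1 fit (adjusted p = 0.461) and with the replicate number as a block (adjusted p = 0.0843).

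Of 6 alpha-specific genes in the data, 2 had enough values to be tested, and both were lower in W303. Ratios give no level and the mating type is not given, so whether any of the strains expressed these genes is unknown. In strains that do not, the ratio compares signal that is not of the gene. SAG1, the agglutinin of alpha cells, had ratios of 0.24, -0.50, -0.54 and -0.50 in W303, against 0.29, 0.38, 0.42 and 0.58 in BY4741 (difference -0.74, SE 0.16, adjusted p = 0.00629). The lowest BY4741 value lies just above the highest W303 value. MATALPHA1 averaged -0.86 in W303 and -0.38 in BY4741 (3 arrays; adjusted p = 0.0155), and was not called without BY4741 replicate 4 (-0.38, adjusted p = 0.0609) or at equal spread. Of 27 pheromone pathway genes, 9 were higher and 3 lower in W303 (all ORFs: 20.2% and 17.9%). PRM1, of cell fusion, had ratios of -0.17, -0.13, 0.04 and -0.11 in W303, against -1.11, -1.60, -1.13 and -1.20 in BY4741 (difference 1.17, SE 0.12, adjusted p = 0.000129). FIG2 and FUS1 averaged -0.07 and 0.28 in W303, against -1.18 and -0.49 in BY4741 (adjusted p = 0.000276 and 0.000585), and AGA1, the anchor subunit of agglutinin, 0.48 in W303 and -0.56 in BY4741 (adjusted p = 0.000347). PRM1 and FIG2 fell in BY4741 and were not called in W303. PRM5 ran the other way, at -1.19 in W303 and -0.38 in BY4741 (adjusted p = 0.000474). The part of mating type markers in the other differences was not tested.

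A small set of genes moved strongly and alike. They were chosen for likeness, among ORFs with a symbol called in both backgrounds with 1 sign and means of at least 2-fold. The smallest differences were those of CTS1, PHD1, IMD2, CAR2, IMD3, RNH201, HIS4 and TIP1. CTS1, the chitinase that separates daughter cells, had ratios of 1.08, 0.73, 1.37 and 1.01 in W303, against 1.36, 0.81, 1.25 and 0.89 in BY4741 (difference -0.03, 95% interval -0.38 to 0.32). PHD1, a regulator of filamentous growth, averaged 1.21 in W303 and 1.26 in BY4741 (difference -0.05, 95% interval -0.24 to 0.13). CAR2, of arginine breakdown, averaged 1.28 and, in BY4741, 1.19 (difference 0.09, 95% interval -0.31 to 0.49). RNH201, a subunit of ribonuclease H2, averaged 1.37 in W303 and 1.25 in BY4741 (difference 0.12, 95% interval -0.13 to 0.36). HIS4, of histidine synthesis, fell in both, with ratios of -1.5, -1.48, -1.34 and -1.46 in W303, against -1.27, -1.23, -1.24 and -1.5 in BY4741 (difference -0.13, 95% interval -0.33 to 0.06). TIP1, a cell wall mannoprotein, averaged 1.22 in W303 and 1.04 in BY4741 (difference 0.17, 95% interval -0.20 to 0.55). The arrays of the 2 backgrounds overlap in every one of these genes. Likeness holds for the ratios as deposited: at equal spread CTS1, PHD1 and RNH201 were called lower in W303 (-0.52, -0.64 and -0.49).

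The remaining lists are read against 20.2% higher, 17.9% lower and a median difference of 0.03 over all ORFs. Flocculins and filamentous growth genes gave 8 higher and 2 lower in W303 of 18, with a median difference of 0.27 (1 and 2 at equal spread, 5 higher without W303 replicate 1), and cell cycle cyclins 9 higher and 0 lower of 22, with a median difference of 0.24 (3 and 0 at equal spread, 4 higher without W303 replicate 4, and 5 without W303 replicate 3 or BY4741 replicate 1). PCL5, a cyclin that limits the activator Gcn4, averaged 1.65 ± 0.12 in W303 and 0.72 ± 0.27 in BY4741, and CLB1 0.51 ± 0.11 in W303 and -0.21 ± 0.06 in BY4741 (SD, n = 4 each; limma adjusted p = 0.000698 and 0.0003). Peroxisome and fatty acid oxidation genes gave 9 higher and 2 lower of 31, with a median difference of 0.13 that was 0.07 to 0.09 without W303 replicate 1, BY4741 replicate 1 or BY4741 replicate 3. Proteasome genes gave 5 higher and 1 lower of 33 (1 to 3 higher without W303 replicate 3 or 4 or BY4741 replicate 2, 3 or 4), phosphate regulon genes 2 higher and 5 lower of 20, and thiamine genes 1 higher and 3 lower of 17. Vacuolar proton ATPase genes gave 1 higher and 1 lower of 15, and histone genes 0 higher and 1 lower of 10.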

How the data were processed

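The authors deposited 1 table of log ratios of the 2 dyes per ORF and array, read here as log2 from their range of -7.15 to 5.55; scanner intensities were not used here, and the background correction, normalisation and filter are not given in the sources used here. Deposited array medians lay within 0.029 of 0. The columns follow the dyes: 7 pairs of arrays of opposite orientation within a background correlated at r = -0.914 to -0.505 as deposited, and 5 pairs of the same orientation at 0.754 to 0.948. The numerator dye was inferred from lower values of the deleted genes in the mutant, where the HAL5 fall was called in BY4741 and not in W303.

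The ratios were turned to mutant over wild type and fitted with limma 3.58.1 in R 4.3.3 (lmFit, eBayes, two-sided), as a contrast of the 2 group means over the 8 arrays of pH 4.5, and as 1 mean per ORF within each background, where the series names one-class SAM. ORFs needed 3 values in each background. The scripts were tested on simulated data. Arrays of the same number did not deviate together (r = 0.129, -0.0484, 0.0837 and -0.143), so numbers were not taken as pairs. The number of arrays limits the precision. The sources used here do not say whether 1 wild-type RNA served several arrays.

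Genes were named by rule: the deleted and marker genes, the 15 largest called differences in each direction without overlap, up to 8 in each direction called in both backgrounds with opposite signs, up to 4 called genes from each list, and 8 that moved alike. The members and the 40 gene lists were chosen with earlier results of these data known; GUA1, IMD4, ADE16, ENA2, CMP2 and CNB1 were named after their values were seen. RefSeq names matched 5481 of the 5994 ORFs, 4994 with a symbol, and 513 stayed unmatched. Spots of similar genes can cross-hybridise.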

Additional observations from a re-analysis of the deposited data

Results flagged for a closer look

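The difference between the backgrounds was called for 2012 ORFs, and 101 ORFs were called in both backgrounds with opposite signs. Both counts are described above and are listed here because the mutant over wild type ratios differed between the 2 backgrounds. The cause was not tested.

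In 15 of 245 groups of 4 arrays checked for the named genes, 1 array stood far from the other 3; chance alone gives about 1 in 20. In W303, replicate 1 was high for HAL5 (0.417, others -0.32 to -0.213), GPX1 (2.915, others 2.413 to 2.473) and SAG1 (0.242, others -0.542 to -0.499), and low for HSP33 (1.393, others 2.064 to 2.133). W303 replicate 2 was low for CAR2 (0.806, others 1.425 to 1.452). W303 replicate 3 was high for GPX2 (-0.347, others -0.415 to -0.407) and ADE13 (-2.139, others -2.432 to -2.411). W303 replicate 4 was high for HSP104 (1.749, others 1.442 to 1.454) and GLC3 (2.413, others 2.109 to 2.156).

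In BY4741, replicate 2 was high for COX5B (0.358, others -0.063 to -0.013) and PPZ2 (0.09, others -0.024 to -0.005). BY4741 replicate 3 was low for RPF2 (-0.379, others 0.029 to 0.086). BY4741 replicate 4 was high for ADE2 (-0.434, others -0.637 to -0.607) and AGA2 (0.229, others -0.084 to -0.063), and low for HIS4 (-1.505, others -1.272 to -1.231).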

How the results depend on the processing

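The count of 2012 called differences was 1095 with all 12 arrays in 1 fit, 1205 at equal spread and 68 when a difference had to exceed 1.5-fold, and 1480 to 2067 on leaving out 1 array. With dye orientation as a term it was 2189, and on the arrays with the mutant in Cy5 alone 1889; on those with the mutant in Cy3 alone (1 in W303, 2 in BY4741, the lone array assumed to vary like the others) limma called 0, with 1445 at an unadjusted p below 0.05, and 1864 of 1870 differences had the direction of the full fit. These last 2 were chosen after seeing the data. The 1870 ORFs were called in the full fit, which includes the arrays with the mutant in Cy3. Their agreement of direction was thus nearly fixed in advance and is no independent support. With the replicate number as a block, 1897 were called, 1790 of them among the 2012. At equal spread, 1984 of the 2012 differences had the direction of the full fit, which called them on the same arrays, so this is no independent support either. The RNH201 difference turned to -0.49 there, and the calls that ended at equal spread are marked above. With all 12 arrays in 1 fit, 8 named genes lost their call: MET1, AUS1, COX7, RPL41A, TRK2, SGE1, MATALPHA1 and BAR1. When a difference had to exceed 1.5-fold, 76 of the 129 named genes tested lost their call.

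Within W303, 467 of 3673 effects exceeded 1.5-fold by that test, and leaving out 1 array gave 3137 to 3588. Within BY4741, 81 of 1712 did, and leaving out 1 array gave 744 to 1378, with 744 without replicate 3 and 1013 without replicate 4. The difference in array SD was 0.163 to 0.187 on leaving out 1 array. Spot brightness was not analysed here, so which ratios rest on dim spots is unknown.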
